A study of Homo sapiens with 12 samples.

Results

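The DNA repair genes described here were 35 genes of homologous recombination, end joining, Fanconi crosslink repair, mismatch repair and damage signaling, chosen as a list of symbols and matched to the Ensembl identifiers of the count files. All 35 were found among the 58381 genes counted, and all 35 were among the 19162 genes that passed the filter on low counts. VCaP is a prostate cancer cell line that carries the TMPRSS2-ERG fusion. The study grew VCaP cells long-term with testosterone (T) to obtain VCaP-T and then adapted VCaP-T cells to little testosterone to obtain VCaP-CT, and asked which genes follow the androgen level and which return to their earlier level after adaptation. The 12 libraries of poly(A) RNA fell into 4 groups of 3. The groups were VCaP-T held for 48 h at 0.1 nM T (depleted VCaP-T), VCaP-T at its maintenance level of 10 nM T, VCaP-CT held for 48 h at 10 nM T (rechallenged VCaP-CT), and VCaP-CT at its maintenance level of 0.1 nM T after 10 months of adaptation; concentrations below are of T. VCaP-T cells were at passage 84 and VCaP-CT cells at passage 73, both after 20 months of culture in medium with charcoal-stripped serum. Each line is a single long-term subclone, so line, passage and adaptation cannot be told apart. No source used here says that the replicates of a group came from separate cultures, and p-values then measure only how these samples spread, which may be technical.

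Double-strand breaks in DNA are repaired mainly by homologous recombination, which copies the intact sister chromatid and therefore works in S and G2 phase, or by end joining, which ligates the ends directly in any phase. In homologous recombination the MRE11-RAD50-NBN complex and EXO1 trim the ends, BRCA1-BARD1, PALB2 and BRCA2 load the recombinase on them, and BLM unwinds the intermediates. The Fanconi proteins unhook crosslinks between the strands, and ATM, ATR, CHEK1 and CHEK2 signal damage to the cell cycle. In prostate cancer these genes are known because BRCA2, ATM and others are lost by inherited or somatic change. Loss of BRCA2 makes tumors sensitive to PARP inhibitors, and androgen receptor signaling has been linked to the expression of repair genes. Many of them are also expressed with the cell cycle, under E2F factors.

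The promoter stretches with an E2F match are shown as a description, and a link between them and testosterone was not tested. Promoters, 250 bases before to 50 after the gene start, were taken from RefSeq (GRCh38.p14), where 30 of the 35 genes had an entry. An E2F match was any of TTTCCCGC, TTTCGCGC, TTTGCCGC or TTTGGCGC on either strand. It was present in 9 of the 30 promoters (30%), against 5.4% of the 15843 promoters of protein-coding genes. The 9 genes were XRCC2, XRCC6, FANCA, FANCC, FANCD2, TOPBP1, MSH6, EXO1 and LIG1, and 7 examples are printed 5′ to 3′ on the strand of the gene, with the match in capitals.
EXO1 (chr1:241848197-241848226, plus strand): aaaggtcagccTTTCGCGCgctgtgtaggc
MSH6 (chr2:47783137-47783166, plus strand): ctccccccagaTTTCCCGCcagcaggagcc
TOPBP1 (chr3:133661930-133661959, minus strand): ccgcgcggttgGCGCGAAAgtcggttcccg
XRCC2 (chr7:152676102-152676131, minus strand): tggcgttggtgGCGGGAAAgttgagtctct
FANCD2 (chr3:10026424-10026453, plus strand): cgtcgggcctgGCGGGAAAgtcgaaaacta
LIG1 (chr19:48170440-48170469, minus strand): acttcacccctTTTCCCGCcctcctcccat
FANCC (chr9:95317737-95317766, minus strand): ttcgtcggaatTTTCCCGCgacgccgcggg

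FANCC had another match, TTTCGCGC in reverse complement, further upstream. The NF-Y box CCAAT, on either strand, was present in 16 of the 30 promoters (53.3%), against 42.1% of the protein-coding promoters. TTTGAA or TTCGAA, the letters of the cell cycle homology region, were present in 3 (10%), against 17.5%. AGAACA, the hexamer of androgen response elements, was present in 4 (13.3%), against 14.9%, and these were BRCA2, LIG4, EXO1 and PARP1. None of these motifs is contained in another. The matches are letters in a window and say nothing of binding.

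The libraries held 30.2 to 40.8 M counted fragments. The prostate genes KLK3, KLK2, HOXB13, KRT8, KRT18 and EPCAM and the VCaP gene ERG were detected in every group. FKBP5, an androgen receptor target, averaged 5847 normalized counts in depleted VCaP-T and 18793 in VCaP-T at 10 nM, and 28333 in rechallenged VCaP-CT and 5116 in VCaP-CT at 0.1 nM. Markers of other cell types were counted as well. PTPRC and CD3E averaged under 1 normalized counts in every group, and the 5 leukocyte markers together summed to 134 to 156 normalized counts in VCaP-CT at 0.1 nM and 2348 to 2689.7 in VCaP-T at 10 nM, nearly all of it LYZ. The 6 endothelial markers summed to 532 to 566 in depleted VCaP-T and 525 to 577 in VCaP-T at 10 nM, and to 477 to 505 in rechallenged VCaP-CT and 309 to 327 in VCaP-CT at 0.1 nM. KDR was at 0 throughout and VWF made up most of the sum, while PECAM1 averaged 123 in depleted VCaP-T and 37.2 in VCaP-T at 10 nM. The 8 fibroblast markers summed to 659 to 772 in depleted VCaP-T and 222 to 288 in VCaP-T at 10 nM, and to 119 to 123 in rechallenged VCaP-CT and 980 to 1091 in VCaP-CT at 0.1 nM. Of the 3 of them tested, 2 were higher and 0 lower on depletion, and 3 were lower on rechallenge. LUM averaged 300 in depleted VCaP-T and 20.5 in VCaP-T at 10 nM, and 65.9 in rechallenged VCaP-CT and 886 in VCaP-CT at 0.1 nM, while COL1A2, COL3A1, DCN, PDGFRA and THY1 averaged at most 4.42 in any group. The part of these markers in the results below was not tested. Depleted VCaP-T replicate 2 stood apart. Each library was set against the median of its group, the library itself among the 3, over genes averaging more than 100 normalized counts. Replicate 2 was higher for genes of short exon length, by a median log2 difference of 0.71 up to 1500 bases. It was lower for long ones, by a median of -0.49 above 8000 bases. In the other 11 libraries the same medians lay between -0.043 and 0.020. For each gene the middle of the 3 libraries scores 0 by this measure, which holds such medians near 0. The repair genes have long exon lengths per gene, with a median of 6576 bases against 3907 over the genes tested. Of the 35, 25 (71.4%) were lower in replicate 2 than in its sisters, against 53.3% of the genes tested. Since the 4 groups share an estimate of the spread in the model, each comparison is given with all libraries and without replicate 2.

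**Figure D1:**
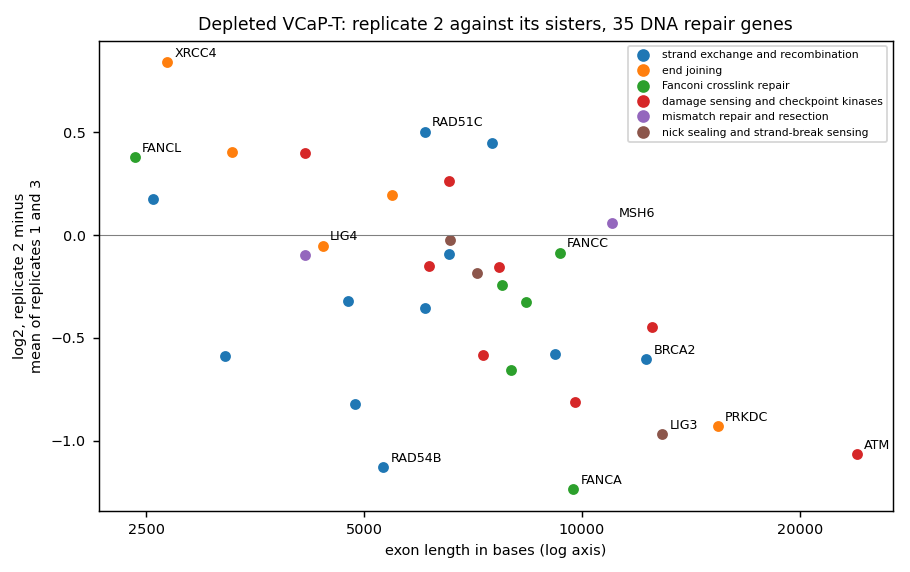
Depleted VCaP-T replicate 2 against the mean of replicates 1 and 3 for the 35 genes. The x axis is the exon length in bases on a log scale, the y axis is the log2 difference in normalized counts, and each point is a gene colored by role. The long genes ATM (-1.07), LIG3 (-0.97) and PRKDC (-0.93) were low in replicate 2 and the short genes XRCC4 (0.84) and FANCL (0.38) were high. The lowest were FANCA (-1.24, 9736 bases) and RAD54B (-1.13, 5313 bases). Some genes went against length, with XRCC2 (-0.82, 4853 bases) and RAD54L (-0.59, 3212 bases) low. XRCC3 (0.45, 7507 bases) and MSH6 (0.06, 10993 bases) were above 0.

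The most abundant repair transcripts were those of the Ku heterodimer, which binds broken ends, and of its kinase. Per exon length, XRCC6 (Ku70; ENSG00000196419.12, chromosome 22, 41621119 to 41664048 of GRCh38) averaged 136 FPKM in depleted VCaP-T and 146 ± 2.66 in VCaP-T at 10 nM, and 192 in rechallenged VCaP-CT and 155 in VCaP-CT at 0.1 nM (SD, n = 3 libraries). XRCC5 (Ku80) followed with 62.6 ± 3.32 FPKM in VCaP-T at 10 nM, PARP1, which senses strand breaks, with 50.9 ± 1.04, PRKDC, the catalytic subunit of DNA-PK, with 41.4 ± 0.818, and FANCI, the partner of FANCD2, with 35.5 ± 1.40. The other 30 genes lay between 0.233 and 18.6 FPKM. RAD50 was the lowest at 0.233 ± 0.0209 FPKM in VCaP-T at 10 nM, but 79.66% of its exon bases overlap another annotated gene and fragments that fall on several genes were left out of the counts. Its partners MRE11 and NBN, with little or no overlap, were at 6.51 ± 0.218 and 10.0 ± 0.408 FPKM. The same overlap covers 76.68% of XRCC3, 59.08% of RAD54B, 30.45% of LIG3, 25.09% of RAD54L and 23.64% of FANCA, so that their levels are lower bounds. Among the double-strand break genes that prostate tumors lose, BRCA2 was at 1.51 ± 0.0868 and ATM at 2.48 ± 0.084 FPKM in VCaP-T at 10 nM. The plot of levels per exon length shows this span between genes in the 4 groups.

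**Figure D2:**
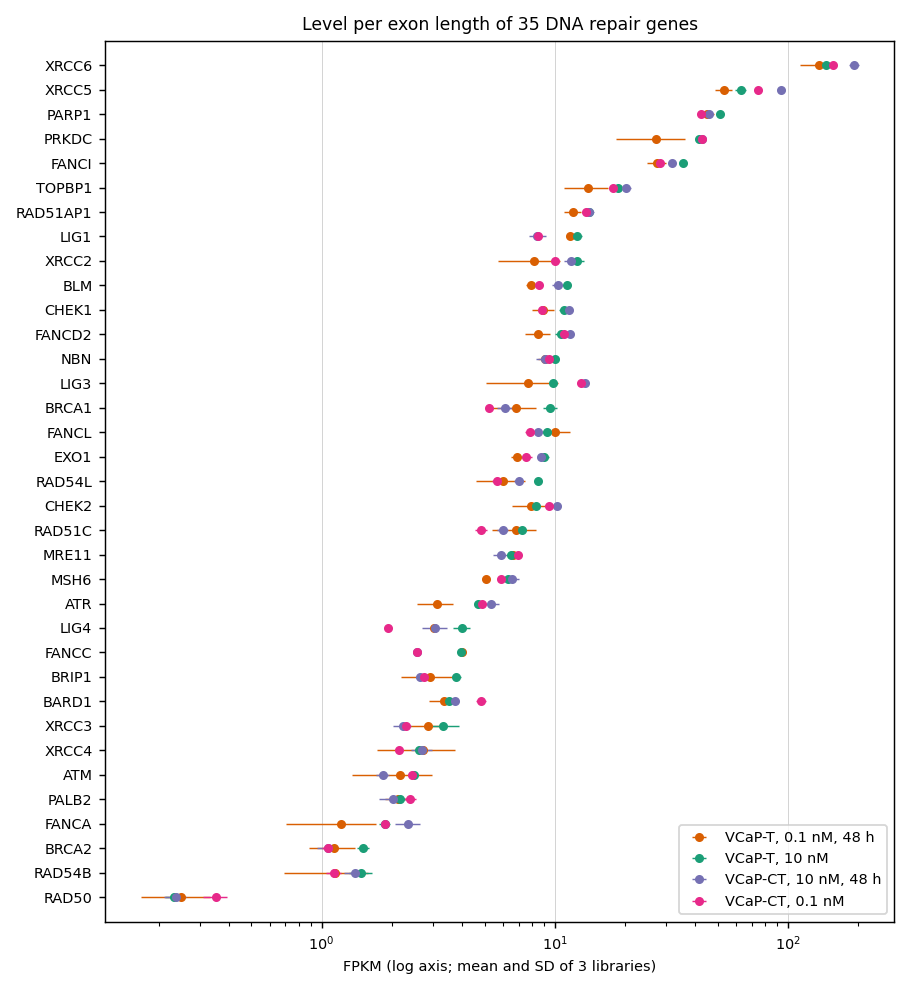
FPKM of the 35 genes on a log axis, ordered by the level in VCaP-T at 10 nM. Points are means and lines the SD of 3 libraries in depleted VCaP-T, VCaP-T at 10 nM, rechallenged VCaP-CT and VCaP-CT at 0.1 nM; XRCC6 and XRCC5 lie at the top and RAD50 at the bottom.

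Testosterone depletion of VCaP-T lowered 5 repair genes and raised 0. The 5 were BLM, ATR, EXO1, FANCI and MSH6, called at an adjusted p under 0.01 by edgeR's quasi-likelihood test. Over all genes tested, 3.83% were called lower and 6.15% higher. For BLM (ENSG00000197299.10, chromosome 15, 90717327 to 90816165), the helicase lost in Bloom syndrome, the normalized counts were 1814, 1740 and 1894 in depleted VCaP-T and 2541, 2603 and 2677 in VCaP-T at 10 nM. All depleted libraries lay below all others, replicate 2 among them, and the log2 fold change was -0.52 (SE 0.07, edgeR adjusted p = 0.000328). ATR (ENSG00000175054.14, chromosome 3, 142449235 to 142578826), the kinase that responds to stalled replication forks, had 1469, 1102 and 1539 normalized counts in depleted VCaP-T and 2005, 2056 and 2152 in VCaP-T at 10 nM. The groups did not overlap and the log2 fold change was -0.60 (SE 0.11, edgeR adjusted p = 0.003), or -0.47 (SE 0.06, edgeR adjusted p = 8.02e-06) without replicate 2, which was the lowest library.

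EXO1, FANCI and MSH6 showed smaller differences. EXO1 (ENSG00000174371.16, chromosome 1, 241847967 to 241895148), a nuclease of end resection and mismatch repair, had 987, 958 and 1066 normalized counts in depleted VCaP-T and 1247, 1300 and 1388 in VCaP-T at 10 nM, a log2 fold change of -0.39 (SE 0.08, edgeR adjusted p = 0.00456). FANCI (ENSG00000140525.17, chromosome 15, 89243949 to 89317261) had 7937, 6673 and 7872 normalized counts in depleted VCaP-T and 9320, 9745 and 10085 in VCaP-T at 10 nM, a log2 fold change of -0.37 (SE 0.08, edgeR adjusted p = 0.0059). MSH6, which recognizes mismatches, averaged 1956 ± 73.5 normalized counts in depleted VCaP-T and 2444 ± 79.6 in VCaP-T at 10 nM (SD, n = 3 each), a log2 fold change of -0.32 (SE 0.07, edgeR adjusted p = 0.00797). In none of the 3 did a depleted library reach the range of VCaP-T at 10 nM. MSH6 is named here because it was among the 5 called, after its values were seen.

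The direction was broader than the calls. Irrespective of p, 30 of the 35 genes had a negative log2 fold change, with a median of -0.29 over the repair genes against 0.04 over all genes tested. In 20 of the 35 every depleted library lay below every library of VCaP-T at 10 nM, against 17.6% of the genes tested. At an unadjusted p under 0.05, 19 were lower and 0 higher, against 14.7% and 20.9% of all genes tested, and DESeq2 called 13 lower and 0 higher, against 7.47% and 8.63% of the genes to which it gave an adjusted p. Without replicate 2, edgeR called 20 lower and 0 higher, against 12.6% lower and 14.4% higher of all genes tested, and the median was -0.25 against 0.02. The 20 included 7 of the 11 strand exchange genes, 4 of the 5 end joining genes, 3 of the 6 Fanconi genes, 4 of the 8 sensing and checkpoint genes and both mismatch repair and resection genes, but none of LIG1, LIG3 and PARP1. Each of the 5 genes of the fit on all libraries was among the 20. With 1 other library left out, the count of genes lower was 1 without any of the VCaP-T 10 nM libraries, 3 without any of the VCaP-CT 0.1 nM libraries or without rechallenged VCaP-CT replicate 1 or 2, and 4 to 6 otherwise. Of the 19574 to 19720 genes tested in these fits, 324 to 393, 520 to 581 and 575 to 656 were lower, in the same order. BLM kept its call in 12 of 12 fits without 1 library and lost it only when the model was fitted on the 6 VCaP-T libraries alone. ATR kept its call in 9 of the 12 fits without 1 library, EXO1 in 8, FANCI in 3 and MSH6 in 2.

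PRKDC and BRCA1 missed the threshold with all libraries and passed it without replicate 2. PRKDC (ENSG00000253729.7, chromosome 8, 47773108 to 47960183) had 17363, 9197 and 17698 normalized counts in depleted VCaP-T and 22635, 22009 and 22869 in VCaP-T at 10 nM. All depleted libraries were lower and replicate 2 was by far the lowest, which gave a log2 fold change of -0.61 (SE 0.18, edgeR adjusted p = 0.0349) with all libraries and -0.36 (SE 0.04, edgeR adjusted p = 4.85e-07) without it. BRCA1 (ENSG00000012048.21, chromosome 17, 43044295 to 43170245) had 2376, 1651 and 2561 normalized counts in depleted VCaP-T and 2892, 3084 and 3300 in VCaP-T at 10 nM. Its log2 fold change was -0.49 (SE 0.13, edgeR adjusted p = 0.0223) with all libraries and -0.33 (SE 0.06, edgeR adjusted p = 0.000524) without replicate 2. For ATM, the kinase of the double-strand break response, the log2 fold change was -0.19 (adjusted p = 0.543) with all libraries and 0.08 (adjusted p = 0.314) without replicate 2, and no direction can be given.

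Testosterone rechallenge of VCaP-CT raised 3 repair genes, LIG4, CHEK1 and XRCC5, and lowered 0, against 7.07% of all genes tested higher and 7.19% lower. LIG4 (ENSG00000174405.13, chromosome 13, 108207439 to 108218368), the ligase of end joining, had 502, 516 and 406 normalized counts in rechallenged VCaP-CT and 304, 301 and 292 in VCaP-CT at 0.1 nM. All rechallenged libraries were higher, replicate 3 the least, and the log2 fold change was 0.67 (SE 0.11, edgeR adjusted p = 0.000645). CHEK1 (ENSG00000149554.12, chromosome 11, 125625136 to 125676255), the checkpoint kinase downstream of ATR, had 2717, 2742 and 2536 normalized counts in rechallenged VCaP-CT and 2078, 1954 and 2050 in VCaP-CT at 0.1 nM. The groups were clearly apart, with a log2 fold change of 0.39 (SE 0.09, edgeR adjusted p = 0.00521). XRCC5 (ENSG00000079246.15, chromosome 2, 216107464 to 216206303) had 18609, 17983 and 17384 normalized counts in rechallenged VCaP-CT and 13906, 14489 and 14344 in VCaP-CT at 0.1 nM, a log2 fold change of 0.34 (SE 0.08, edgeR adjusted p = 0.0082). BLM, next in order of p, had 2460, 2430 and 2224 normalized counts in rechallenged VCaP-CT and 1935, 2020 and 1948 in VCaP-CT at 0.1 nM. These did not overlap, but the log2 fold change of 0.27 (SE 0.07) had an adjusted p of 0.0139 and was not called.

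Over the 35 genes, 26 had a positive log2 fold change on rechallenge, with a median of 0.13 against -0.02 over all genes tested. In 22 every rechallenged library lay above every library of VCaP-CT at 0.1 nM, against 27.4% of the genes tested. In 5, PALB2, BARD1, MRE11, RAD50 and ATM, every rechallenged library lay below, and the share of all genes in that direction was not counted. At an unadjusted p under 0.05, 9 were higher and 3 lower, against 17.2% and 18.2% of all genes tested, and DESeq2 called 4 higher and 1 lower, against 8.75% and 7.77%. Without depleted replicate 2, which is no library of this comparison and enters it through the shared spread, 15 were higher and 4 lower, against 19.0% and 17.6% of all genes tested. Fitted on the 6 VCaP-CT libraries alone, 12 were higher and 4 lower, against 19.7% and 19.5% of the genes tested in that fit. The 15 included 5 of the 11 strand exchange genes (BRCA1, RAD51C, XRCC2, RAD54L and BLM) and 4 of the 5 end joining genes (XRCC4, XRCC5, XRCC6 and LIG4). The 4 lower genes were BARD1, the partner of BRCA1, at -0.37 (SE 0.06, edgeR adjusted p = 5.83e-05), ATM at -0.42 (SE 0.06, edgeR adjusted p = 6.42e-06), and MRE11 and RAD50 of the end-trimming complex at -0.24 and -0.57. With 1 other library left out, 1 gene was higher without VCaP-T 10 nM replicate 1 or 2 or any of the VCaP-CT libraries, and 2 or 3 otherwise. Of the 19574 to 19720 genes tested in these fits, 799 to 1152 were higher in the former and 1163 to 1405 in the latter. LIG4 kept its call in 12 of 12 fits without 1 library, CHEK1 in 4 and XRCC5 in 2.

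The depletion and rechallenge comparisons share no library and run in opposite directions of testosterone. With all libraries, 0 repair genes were both lower on depletion and higher on rechallenge at the threshold, against 2.51% of all genes tested, although all 5 lower on depletion had a positive log2 fold change on rechallenge. Without depleted replicate 2, 13 genes were called in both, 65% of the 20 lower on depletion and 86.7% of the 15 higher on rechallenge. Over all genes tested in that fit 9.65% were called in both, 76.3% of those lower on depletion and 50.8% of those higher on rechallenge. The 13 were BRCA1, RAD51C, XRCC2, RAD54L and BLM of strand exchange, XRCC5, XRCC6 and LIG4 of end joining, FANCA and FANCI, TOPBP1, which activates ATR, CHEK1 and EXO1. Of the 9 genes with an E2F match in the promoter, 7 were lower on depletion in that fit, against 10 of the 21 genes whose promoter had none, and 5 were higher on rechallenge, against 8 of 21. With all libraries the counts were 2 of 9 against 2 of 21 on depletion and 0 of 9 against 2 of 21 on rechallenge. These counts are given as a description, with no test.

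Lists of related genes were counted beside the repair genes. Of 44 genes of DNA replication and S phase, 9 were lower and 0 higher on depletion, and 11 were higher and 0 lower on rechallenge. Their summed normalized counts were 105700 to 124580 in depleted VCaP-T and 134900 to 136950 in VCaP-T at 10 nM, and 128960 to 137100 in rechallenged VCaP-CT and 108600 to 110170 in VCaP-CT at 0.1 nM. The groups did not overlap in either line. Of 40 mitosis genes, 5 were lower and 1 higher on depletion, and 3 were higher and 0 lower on rechallenge. Of 94 other DNA repair genes tested, 3 were lower and 2 higher on depletion, with a median log2 fold change of -0.07, and 1 was higher and 3 lower on rechallenge, with a median of 0.03. With depleted replicate 2 left out the counts on depletion were 33 lower and 0 higher for the S phase genes, 21 lower and 1 higher for the mitosis genes, and 19 lower and 8 higher for the other repair genes. On rechallenge they were 28 higher and 1 lower for the S phase genes, 10 higher and 5 lower for the mitosis genes, and 19 higher and 13 lower for the other repair genes. In RNA from whole cultures, fewer cells in S phase and less RNA per cell cannot be told apart, and the part of the S phase genes in the results on the repair genes was not tested.

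With each line in its own medium, VCaP-CT at 0.1 nM had 9 repair genes lower and 1 higher than VCaP-T at 10 nM, against 15.7% and 14.8% of all genes tested. Line and testosterone level differ together here. The 9 were LIG4, FANCC, LIG1, BRCA1, BLM, RAD51C, RAD54L, FANCI and PARP1, and the higher gene was BARD1. LIG4 was the only repair gene that passed the thresholds of the study, which ask for an absolute log2 fold change above 1 and for medians more than 13 normalized counts apart as well (12.7% of all genes tested). It had 304, 301 and 292 normalized counts in VCaP-CT at 0.1 nM and 592, 582 and 676 in VCaP-T at 10 nM, with no overlap and a log2 fold change of -1.05 (SE 0.10, edgeR adjusted p = 7.36e-06). Without VCaP-T 10 nM replicate 3, the highest library, it was -0.97 and under that fold threshold. Of the 3 tested genes within 1 Mb of LIG4, 1 was lower and 0 were higher, with a median log2 fold change of -0.24.

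With each line in its own medium, BRCA1 was lower and its partner BARD1 higher in VCaP-CT. BRCA1 had 1660, 1695 and 1705 normalized counts in VCaP-CT at 0.1 nM and 2892, 3084 and 3300 in VCaP-T at 10 nM, well apart, with a log2 fold change of -0.87 (SE 0.13, edgeR adjusted p = 0.000238). BARD1 (ENSG00000138376.10, chromosome 2, 214725646 to 214809711) had 976, 1045 and 1080 normalized counts in VCaP-CT at 0.1 nM and 724, 732 and 792 in VCaP-T at 10 nM, a log2 fold change of 0.46 (SE 0.10, edgeR adjusted p = 0.00279). At 10 nM the log2 fold change of BARD1 was 0.09 (SE 0.10, edgeR adjusted p = 0.533) and its libraries overlapped between the lines. At 0.1 nM that of BRCA1 was -0.38 (SE 0.13, edgeR adjusted p = 0.0375), or -0.55 (SE 0.06, edgeR adjusted p = 8.35e-07) without depleted replicate 2. The other strand exchange genes called were RAD51C, a paralog of the recombinase, at -0.59 (SE 0.12), the translocase RAD54L at -0.58 (SE 0.14) and BLM at -0.41 (SE 0.07). FANCI and PARP1 were lower by smaller amounts, at -0.33 (SE 0.08) and -0.27 (SE 0.07).

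Without depleted replicate 2 this comparison had 17 repair genes lower and 5 higher, against 26.7% of all genes tested lower and another 26.7% higher. DESeq2 called 13 lower and 1 higher, against 13.7% and 12.5%. The 5 higher were BARD1, XRCC5, RAD50, CHEK2 and LIG3. With 1 other library left out, 5 genes were lower without VCaP-T 10 nM replicate 2 or VCaP-CT 0.1 nM replicate 1 or 3, and 0 higher without VCaP-T 10 nM replicate 1 or 2 or VCaP-CT 0.1 nM replicate 2 or 3. Of the 19646 to 19698 genes tested, 2233 to 2326 were lower in the former fits and 2054 to 2135 higher in the latter. LIG4, FANCC, LIG1, BRCA1 and BLM kept their calls in 12 of 12 fits without 1 library. BARD1 and RAD51C kept theirs in 8, FANCI in 7, RAD54L in 6 and PARP1 in 2. The S phase genes were lower in VCaP-CT as well, 21 of 44 against 2 higher, and 15 of 94 other repair genes were lower and 5 higher. With depleted replicate 2 left out these were 30 lower and 3 higher of the S phase genes, and 33 lower and 17 higher of the other repair genes.

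**Figure D3:**
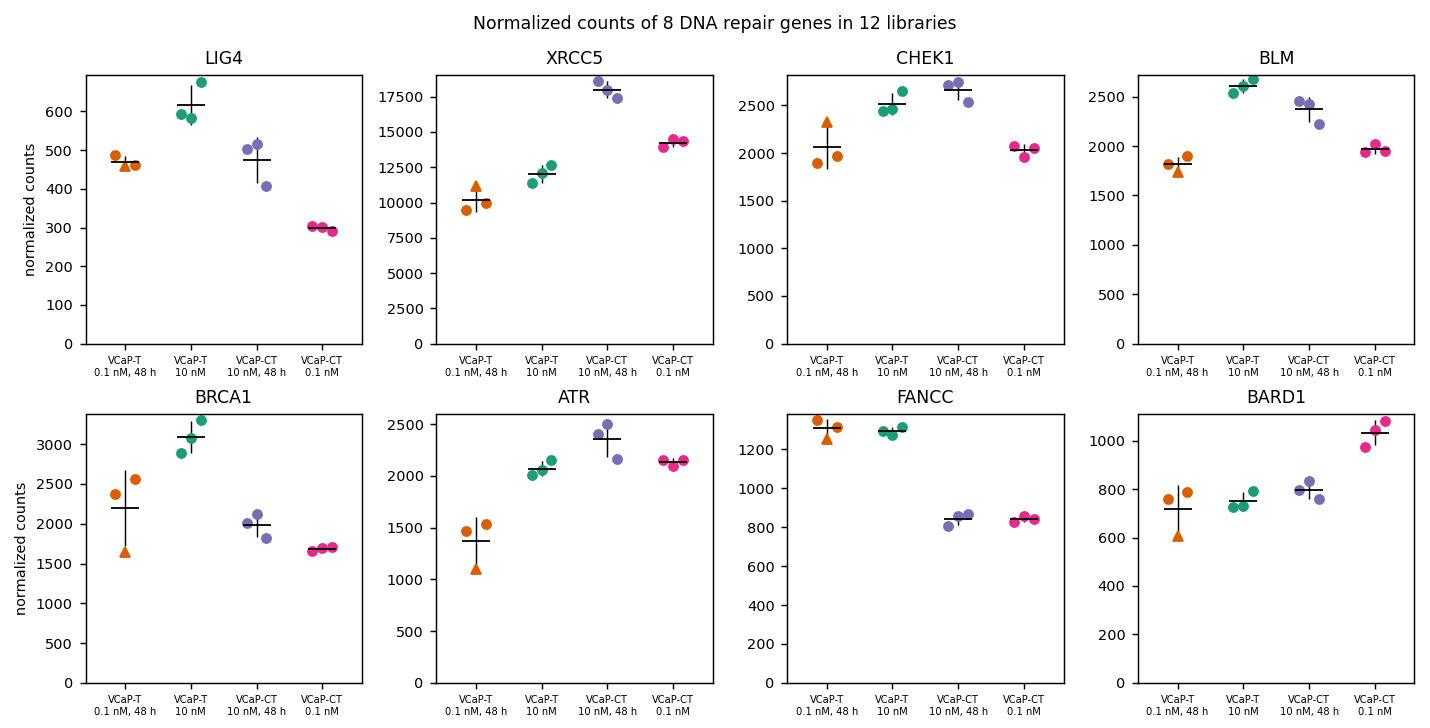
Normalized counts (y axis, from 0) of LIG4, XRCC5, CHEK1, BLM, BRCA1, ATR, FANCC and BARD1 in the 12 libraries. Each point is a library, the triangle is depleted VCaP-T replicate 2, and horizontal and vertical lines are the mean and SD of 3 libraries. The FANCC points of both VCaP-CT groups (807 to 867) lie below both VCaP-T groups (1256 to 1350) at either testosterone level.

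At equal testosterone the difference between the lines took other forms. Each such comparison set a line at its maintenance level against the other line held for 48 h. Line and length of exposure therefore cannot be told apart. At 0.1 nM, VCaP-CT had 5 repair genes higher and 4 lower than depleted VCaP-T, against 13% and 16.4% of all genes tested, and at 10 nM rechallenged VCaP-CT had 2 higher and 4 lower than VCaP-T at its maintenance level, against 12.0% and 13.2%. No repair gene passed the thresholds of the study in these comparisons, nor on depletion or rechallenge, where 12.3%, 10.2%, 3.14% and 5.14% of all genes tested did. The 3 line comparisons share libraries with each other and with depletion and rechallenge, so their values are set side by side and not counted together.

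FANCC and LIG1 differed between the lines by like amounts at every testosterone level. FANCC (ENSG00000158169.12, chromosome 9, 95099054 to 95426796), a core subunit of the Fanconi ligase complex, had 828, 858 and 843 normalized counts in VCaP-CT at 0.1 nM and 1350, 1256 and 1316 in depleted VCaP-T. At 10 nM it had 807, 856 and 867 in rechallenged VCaP-CT and 1295, 1276 and 1317 in VCaP-T. The log2 fold changes of VCaP-CT over VCaP-T were -0.62 with each line in its own medium, -0.63 at 0.1 nM and -0.62 at 10 nM (SE 0.07 each), with edgeR adjusted p of 1.48e-05, 1.45e-05 and 2.17e-05, and those of depletion and rechallenge were 0.01 and 0.00. LIG1 (ENSG00000105486.13, chromosome 19, 48115445 to 48170603), the ligase that seals nicks behind the replication fork, had 1951, 1910 and 2020 normalized counts in VCaP-CT at 0.1 nM and 2605, 2650 and 2784 in depleted VCaP-T. At 10 nM it had 1955, 1786 and 2112 in rechallenged VCaP-CT and 3030, 2883 and 2770 in VCaP-T. The libraries of the lines did not overlap in either pair, and the log2 fold changes were -0.56, -0.45 and -0.57 (SE 0.08 each), each with an adjusted p of at most 0.000551.

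XRCC5 stood higher in VCaP-CT at either level. It had 13906, 14489 and 14344 normalized counts in VCaP-CT at 0.1 nM and 9485, 11153 and 9984 in depleted VCaP-T, a log2 fold change of 0.48 (SE 0.08, edgeR adjusted p = 0.0004). At 10 nM it had 18609, 17983 and 17384 in rechallenged VCaP-CT and 11369, 12126 and 12638 in VCaP-T, a log2 fold change of 0.58 (SE 0.08, edgeR adjusted p = 0.000116). Its partner XRCC6 was called at 10 nM, with 23277, 21272 and 22091 normalized counts in rechallenged VCaP-CT and 16640, 16730 and 17212 in VCaP-T, a log2 fold change of 0.40 (SE 0.10, edgeR adjusted p = 0.00998). At 0.1 nM its log2 fold change of 0.19 was not called, and it was 0.34 (SE 0.05, edgeR adjusted p = 4.88e-06) without depleted replicate 2, where XRCC6 was high (18857, against 13717 and 14791 in its sisters). XRCC6 had 17577, 18401 and 17974 normalized counts in VCaP-CT at 0.1 nM.

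LIG4 was lower and ATR higher in VCaP-CT than in depleted VCaP-T. LIG4 had 304, 301 and 292 normalized counts in VCaP-CT at 0.1 nM and 487, 458 and 462 in depleted VCaP-T, a log2 fold change of -0.65 (SE 0.11, edgeR adjusted p = 0.000365). At 10 nM it averaged 475 ± 59.8 in rechallenged VCaP-CT and 617 ± 51.7 in VCaP-T (SD, n = 3 each). That log2 fold change of -0.38 was not called with all libraries (SE 0.10, edgeR adjusted p = 0.0126) and was called without depleted replicate 2 (SE 0.09, edgeR adjusted p = 0.000916). ATR had 2156, 2096 and 2157 normalized counts in VCaP-CT at 0.1 nM and 1469, 1102 and 1539 in depleted VCaP-T, a log2 fold change of 0.64 (SE 0.11, edgeR adjusted p = 0.000623). Against VCaP-T at 10 nM, whose libraries it overlaps, the log2 fold change of ATR was 0.04 (SE 0.11, edgeR adjusted p = 0.772). BARD1 at 0.52, LIG3 at 0.75 and FANCD2, the clamp that marks crosslinks, at 0.37 were the other genes higher in VCaP-CT at 0.1 nM, and RAD51C at -0.50 the other gene lower. LIG3 was low in depleted replicate 2, and its value was 0.50 (SE 0.04, edgeR adjusted p = 1.67e-08) without that library. At 10 nM BRCA1 at -0.64 (SE 0.13, edgeR adjusted p = 0.0026) and XRCC3 at -0.58 (SE 0.15, edgeR adjusted p = 0.00856) were the other genes lower. BRCA1 had 2010, 2117 and 1826 normalized counts in rechallenged VCaP-CT and 2892, 3084 and 3300 in VCaP-T at 10 nM.

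Without depleted replicate 2 the counts at 0.1 nM were 12 higher and 8 lower, against 23.2% and 24.4% of all genes tested, and those at 10 nM were 6 higher and 12 lower, against 24.7% and 23.2%. DESeq2 called 7 higher and 4 lower at 0.1 nM, against 12.1% and 14.4%, and 2 higher and 7 lower at 10 nM, against 13% and 13.3%. With 1 other library left out, 3 genes were higher at 0.1 nM without VCaP-T 10 nM replicate 2, any VCaP-CT 0.1 nM library or rechallenged replicate 1 or 2. Of the 19646 to 19720 genes tested in these fits, 1756 to 2254 were higher. At 10 nM, 1 gene was higher without any of the other libraries except depleted replicate 1, and 2 were lower without rechallenged replicate 1 or 3. Of the 19646 to 19720 genes tested, 1520 to 2281 were higher in the former fits and 1920 and 1967 lower in the latter. FANCC, LIG1 and XRCC5 kept their calls at both levels, and LIG4, ATR and BARD1 at 0.1 nM, in 12 of 12 fits without 1 library. At 0.1 nM FANCD2 kept its call in 6 of these fits, and RAD51C and LIG3 in 3 each. At 10 nM BRCA1 kept its call in 9, XRCC3 in 3 and XRCC6 in 2. Of the 40 mitosis genes, 17 were higher and 3 lower in VCaP-CT at 0.1 nM than in depleted VCaP-T, or 26 and 4 without depleted replicate 2.

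Genes called lower on depletion without replicate 2 stood at different levels in VCaP-CT at 0.1 nM, the adapted cells. For PRKDC, ATR, FANCA, FANCD2, MSH6 and TOPBP1 the log2 fold changes on depletion of VCaP-T were -0.47 to -0.22 without replicate 2 and -0.62 to -0.32 with all libraries, where only ATR and MSH6 were called. In VCaP-CT at 0.1 nM against VCaP-T at 10 nM these 6 had log2 fold changes of -0.11 to 0.05, none of them called in either fit. For BLM, FANCI, EXO1 and CHEK1 the log2 fold changes on depletion were -0.49 to -0.30 without replicate 2 and -0.52 to -0.29 with all libraries, where CHEK1 was not called. In VCaP-CT at 0.1 nM against VCaP-T at 10 nM these 4 had -0.41 to -0.25, and between VCaP-CT at 0.1 nM and depleted VCaP-T -0.03 to 0.13, where none was called. Against VCaP-T at 10 nM with all libraries, EXO1 and CHEK1 were not called (edgeR adjusted p = 0.0197 and 0.0104). LIG4, BRCA1 and RAD51C had -0.38, -0.33 and -0.28 on depletion without replicate 2 and -1.05, -0.87 and -0.59 in the adapted cells. With all libraries none of these 3 was called on depletion, and RAD51C, whose groups then overlapped, was at -0.09 (adjusted p = 0.642). XRCC5 and CHEK2 had -0.31 and -0.23 on depletion without replicate 2 and 0.24 and 0.17 in the adapted cells. There both were called higher in that fit and not with all libraries. RAD51AP1, XRCC2, XRCC3, RAD54L and XRCC6 were also called lower on depletion in that fit and are not sorted here. These comparisons share libraries, and the genes were put together after their values were seen.

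The response to testosterone was tested between the lines directly, as the log2 fold change of 10 over 0.1 nM in VCaP-CT minus that in VCaP-T. In VCaP-CT testosterone was raised for 48 h and in VCaP-T it was lowered for 48 h. Line and direction and length of exposure therefore cannot be told apart in this test. Of the 35 genes, 0 were called in either direction, against 0.804% of all genes tested higher and 0.162% lower. At an unadjusted p under 0.05, 4 were lower and 0 higher, against 6.06% and 9.95% of all genes tested, and DESeq2 called 0, against 0.799% lower and 2.71% higher. The 4 were BARD1 at -0.43 (SE 0.14, edgeR adjusted p = 0.154), ATR at -0.45 (SE 0.16, edgeR adjusted p = 0.173), BLM at -0.25 (SE 0.10, edgeR adjusted p = 0.23) and PRKDC at -0.60 (SE 0.26, edgeR adjusted p = 0.283), each a smaller rise or a fall with testosterone in VCaP-CT. Without depleted replicate 2, PRKDC was called at -0.35 (SE 0.05, edgeR adjusted p = 7.6e-05), against 1.77% of all genes tested lower and 5.62% higher. PRKDC had 23301, 23799 and 22905 normalized counts in rechallenged VCaP-CT and 23220, 23312 and 23086 in VCaP-CT at 0.1 nM, which overlap, whereas all 3 depleted VCaP-T libraries were below VCaP-T at 10 nM. ATM at -0.34 (adjusted p = 0.011) and ATR at -0.32 (adjusted p = 0.011) came next in that fit and were not called.

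The remaining genes were called in none of the 6 tests with all libraries. They were BRCA2, PALB2, RAD51AP1, XRCC2 and RAD54B of strand exchange, XRCC4 and PRKDC of end joining, FANCA, FANCL and BRIP1 of crosslink repair, and MRE11, RAD50, NBN, ATM, TOPBP1 and CHEK2 of sensing and signaling. RAD50, the gene of lowest level per exon length, had 114, 56.8 and 88.7 normalized counts in depleted VCaP-T, 82.8, 72.3 and 86.0 in VCaP-T at 10 nM, 86.1, 71.7 and 87.5 in rechallenged VCaP-CT, and 131, 127 and 105 in VCaP-CT at 0.1 nM. The VCaP-CT groups did not overlap, and the log2 fold change of -0.57 was not called with all libraries (SE 0.21, edgeR adjusted p = 0.0729) but was without depleted replicate 2 (SE 0.14, edgeR adjusted p = 0.00259). PALB2, which links BRCA1 to BRCA2, and NBN were also called in none of the 6 tests without depleted replicate 2. A p that misses the threshold does not show that a level did not differ.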

How the data were processed

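Poly(A) RNA of 12 libraries of VCaP-T and VCaP-CT cells was analyzed, 3 for each of 4 groups taken from the sample labels. The deposited count values are whole numbers of fragments per gene. The authors prepared stranded mRNA libraries, sequenced 75 bp paired ends, aligned reads with STAR 2.5.4b (GRCh38) and counted fragments with featureCounts 1.6.2 on the exons of Gencode 28. Per the file headers, strand was not used, and fragments on several genes or places were left out, which lowers genes that overlap others. A table of normalized values was not used here. Some single marker genes are not reported here, and the lists were counted without them.

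Counts were tested in R 4.3.3 with edgeR 4.0.16 (quasi-likelihood test, TMM scaling, default filter on low counts, 1 model of the 4 groups, no block) with Benjamini-Hochberg adjustment over the 19162 genes tested, and a gene was called higher or lower at an adjusted p under 0.01. The thresholds of the study were counted beside. Normalized counts are counts scaled by TMM to the mean library. FPKM is the count per M fragments of the TMM-scaled library size and per kilobase of exon length. Scripts were tested on simulated data for depletion, with 3 false calls. Of the genes changed 1.5-fold 10.8% were recovered, of those changed 2-fold 63.6%, and of those changed 4-fold 86.2%. Values in every library are given for genes past the thresholds of the study and for the highest and lowest level per length. For the 4 with the smallest p in each pairwise comparison they are given in the libraries of that comparison. The members and lists were chosen with earlier results of these data known. Alternatives were other scalings, no filter, DESeq2 1.42.0, fits on 6 libraries, the replicate number as a block, an adjusted p under 0.05, and leaving out each library. Tables and figures were made with Python 3.11.15, pandas 2.3.3 and matplotlib 3.10.9. Depth was 30.2 to 40.8 M counted fragments per library.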

Additional observations from a re-analysis of the deposited data

How the results depend on the processing

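The alternatives were followed for 38 results on named genes, those called with all libraries and those with the 4 smallest p of each test. Of these 38, 0 changed direction under any alternative, which such a choice makes likely beforehand. Results outside the 38 could change direction, as ATM on depletion did, from -0.19 with all libraries to 0.08 without depleted replicate 2. For the 33 of the 38 that were called, leaving out a library kept the call in 277 of 396 cases and lost it in 119. The other settings kept it in 161 of 198 and lost it in 37. For the 5 that were not, a call was gained in 2 of 60 cases and in 2 of 26. The fold changes of LIG4, FANCC and LIG1 kept their calls throughout. The counts of repair genes were less stable, and leaving out 1 library at a time gave 1 to 20 lower on depletion, 1 to 15 higher and 0 to 4 lower on rechallenge, 0 to 5 higher and 5 to 17 lower in VCaP-CT with each line in its own medium, 3 to 12 higher and 3 to 8 lower at 0.1 nM T, 1 to 6 higher and 2 to 12 lower at 10 nM T, and 0 to 1 lower in the difference in response. The highest value of each range came without depleted VCaP-T replicate 2. Calls over all genes moved too, with 324 lower on depletion without VCaP-T 10 nM replicate 2 and 2485 without depleted replicate 2. Of the 19574 to 19720 genes tested, 799 to 3735 were higher and 843 to 3449 lower on rechallenge. In own medium 2054 to 5253 were higher and 2233 to 5244 lower. At 0.1 nM T these were 1756 to 4552 and 2422 to 4796, and at 10 nM T 1520 to 4862 and 1918 to 4553. In the difference in response 10 to 347 were lower. Fitting only the 6 libraries of a comparison gave 0 lower on depletion, 12 higher and 4 lower on rechallenge, 5 higher and 19 lower in own medium, 0 higher at 0.1 nM T, and 4 higher and 12 lower at 10 nM T. Over all genes those fits called 81 of 18293 lower on depletion, and 3504 higher and 3477 lower of 17793 on rechallenge. In own medium they called 5065 higher and 5426 lower of 18409. At 0.1 nM T 1103 of 18369 were higher, and at 10 nM T 4153 were higher and 4181 lower of 17972. DESeq2 gave 13 lower on depletion, 1 lower on rechallenge and 7 lower at 10 nM T, against 7.47%, 7.77% and 13.3% of the genes to which it gave an adjusted p. At an adjusted p under 0.05, 14 were lower on depletion, 2 lower on rechallenge, 3 higher and 14 lower in own medium, 8 higher at 0.1 nM T and 7 lower at 10 nM T. The share of all genes at that threshold was not counted. Without the filter, 1 was higher on rechallenge, against 1235 of the 37997 genes then tested. With library totals alone, 0 were higher in own medium, 3 higher at 0.1 nM T and 1 higher at 10 nM T, where size factors by median ratio also gave 1. Over the 19162 genes tested, library totals called 2644, 2200 and 1644 higher in these, and median ratio 2308 at 10 nM T. Library totals moved the share of all calls that were higher to 36.5%, against 49.6% with TMM, on rechallenge and to 35.1%, against 47.7%, at 10 nM T, where the median of all genes shifted by -0.10. The cause of these changes was not tested. The replicate numbers do not pair the samples, since deviations of same-numbered libraries correlated at -0.132 to 0.051. With the replicate number as a block, 2 genes were lower on depletion, 1 higher on rechallenge and 1 higher at 10 nM T. Over the 19162 genes tested, the block called 475, 1054 and 1971 in these. RAD50 rests on 56.8 to 131 normalized counts per library, from which fragments shared with an overlapping gene were left out.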
